A study of Mus musculus with 27 samples.

Results

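The genes described here are 27 genes of cholesterol synthesis and of the sterol regulatory element-binding protein 2 (SREBP2) system. They were chosen by gene symbol from a given list, and all 27 were found among the 23191 gene symbols of the count table. The list holds 8 enzymes of the mevalonate and isoprenoid steps, 11 enzymes from squalene to cholesterol, SREBP2 with 3 of its regulators, and 4 other SREBP2 or sterol-responsive genes. Liver RNA was sequenced from 27 male C57BL/6J mice. Mice lacking hepatocyte growth factor activator (HGFAC-KO), a liver-secreted protease that activates hepatocyte growth factor, were compared with littermate controls. The deletion, made with CRISPR/Cas9, took the whole of exon 2 and a part of exon 1 of *Hgfac*, in all tissues of the mouse and not only in liver. Mice were 8 weeks old at the start and ate chow or a diet rich in fat and sucrose (HF/HS) for 4 weeks. There were 7 control mice on chow, 6 HGFAC-KO mice on chow, 7 control mice on HF/HS and 7 HGFAC-KO mice on HF/HS. Which of the sequenced mice shared a cage or litter, and their feeding state at collection, are not given in the sources used here. Hepatic triglyceride was measured in mice of these genotypes and diets that were fasted overnight and then refed, and whether these were the sequenced mice is not stated.

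Cholesterol is built from acetyl-CoA through mevalonate and isoprenoid units to farnesyl diphosphate, and then through squalene and lanosterol. The liver is a main site of this synthesis. SREBP2 is a transcription factor held in the membrane of the endoplasmic reticulum. When membrane sterol is low, the escort protein SCAP carries it to the Golgi, where proteases release the active part, which induces most enzymes of the pathway. When sterol is high, the INSIG proteins hold SCAP and SREBP2 back. SREBP2 binds sterol regulatory elements (SREs), usually beside sites for the general factors NF-Y, which binds CCAAT boxes, and Sp1, which binds GC boxes. The liver X receptors (LXRs) are activated by oxysterols and drive genes that lower cell sterol, *Mylip* among them.

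The labels were checked on the targeted gene. *Hgfac* was at 201.2 ± 12.8 counts scaled to library size (CPM, SD, n = 7) in controls on chow and at 75.2 ± 8.27 CPM (n = 6) in the HGFAC-KO group on chow, a log2 difference of -1.41 (edgeR adjusted p = 3.054e-08). On HF/HS the control mean was 271.3 CPM and the HGFAC-KO mean 91.8 CPM, and on both diets each HGFAC-KO mouse was below each control. Total counts per mouse ran from 36056177 to 57298657 (median 47239271). Each of the 27 genes had at least 98 counts in each mouse. The sum of 6 hepatocyte markers had group medians on chow of 78050 CPM (controls) and 90450 CPM (HGFAC-KO), and on HF/HS of 78770 CPM and 100500 CPM. *Alb* made up most of this sum, with means of 60390 and 69340 CPM on chow and of 59420 and 78100 CPM on HF/HS. Of the 6 markers, 3 had lower and 3 higher estimates in HGFAC-KO mice on chow, and 2 lower and 4 higher on HF/HS, and edgeR called 0 on both diets, where 2 each had an unadjusted p under 0.05. Over both diets, with diet as a term, *Alb* was higher in HGFAC-KO mice (log2 0.30, edgeR adjusted p = 0.02972). *Sox9* was higher too (log2 0.67, edgeR adjusted p = 0.04307), the 1 called of 5 cholangiocyte markers tested, whose median log2 difference was 0.08. Of these 5, 0 had lower and 5 higher estimates on chow, and 3 lower and 2 higher on HF/HS. In the fit over both diets edgeR called 0 of the markers of Kupffer, other leukocyte, stellate and endothelial cells. The sum of 6 Kupffer cell markers had medians of 151.0 CPM and 118.0 CPM on chow, and of 164.0 CPM and 179.0 CPM on HF/HS. No marker of these cell types was at 0 in any mouse. In whole liver, fewer cells of a type and less RNA per cell cannot be told apart.

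Promoters are shown first, since SREBP2 and its partner factors act there. RefSeq promoter sequences (GRCm38.p6, 250 bases before to 50 bases after a start) were on hand for 23 of the 27 genes, and not for *Fdps*, *Fdft1*, *Sqle* and *Stard4*. The 160 bases before the start are printed 5′ to 3′ on the strand of the gene. *Hmgcs1*, *Mvk* and *Mvd* stand for the genes that fell on HF/HS, *Sc5d* for those that did not pass the test, and *Mylip* is the gene that rose. Each has 1 start in the table and no annotated exon in the window. Capitals mark the SRE letters TCACNCCAC and the CCAAT box, CCAAT or its complement ATTGG. The windows are chr13:119690191-119690350 (plus strand) for *Hmgcs1*, chr5:114444109-114444268 (plus strand) for *Mvk*, chr8:122443423-122443582 (minus strand) for *Mvd*, chr9:42264301-42264460 (minus strand) for *Sc5d* and chr13:45389582-45389741 (plus strand) for *Mylip*.
Hmgcs1: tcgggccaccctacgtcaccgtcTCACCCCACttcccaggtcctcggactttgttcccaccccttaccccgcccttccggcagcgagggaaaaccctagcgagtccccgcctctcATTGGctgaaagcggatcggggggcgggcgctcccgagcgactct
Mvk: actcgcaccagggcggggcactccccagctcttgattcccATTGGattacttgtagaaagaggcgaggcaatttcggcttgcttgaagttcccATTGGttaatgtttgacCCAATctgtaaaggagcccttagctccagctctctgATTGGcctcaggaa
Mvd: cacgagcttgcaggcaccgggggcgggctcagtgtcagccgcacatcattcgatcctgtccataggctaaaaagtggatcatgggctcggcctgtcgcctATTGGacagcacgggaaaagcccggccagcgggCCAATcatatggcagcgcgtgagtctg
Sc5d: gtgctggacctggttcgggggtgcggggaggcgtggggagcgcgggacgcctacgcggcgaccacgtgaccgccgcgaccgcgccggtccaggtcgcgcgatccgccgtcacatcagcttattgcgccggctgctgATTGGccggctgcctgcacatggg
Mylip: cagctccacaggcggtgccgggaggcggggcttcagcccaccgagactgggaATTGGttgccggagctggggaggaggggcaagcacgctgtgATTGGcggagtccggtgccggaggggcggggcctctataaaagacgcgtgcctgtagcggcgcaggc

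The CCAAT letters stood on either strand in 21 of the 23 promoters (91.3%, against 41.1% of 27025 genes with a promoter in the table), all but those of *Acat2* and *Scap*. The GC box GGGCGG was in 20 of 23 (87.0%, against 38.2%), and the E-box CACGTG was in 6 of 23 (26.1%, against 8.09%). The SRE letters TCACNCCAC were in 1 of 23, *Hmgcs1*, against 1.44% of all genes. A gene with several starts was counted if any of them had the letters, both strands were searched, and no matches of different motifs shared a base. A match describes letters and not a bound site, and a missing match to these fixed letters does not show that a site is absent. The 27025 genes were not limited to genes expressed in liver. CCAAT letters stood in the windows of *Mylip* and *Sc5d* as well as in those of the genes that fell.

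In control mice on chow, mean levels per kilobase of merged exon (CPM per kb) ran from 1.27 for *Ggps1* to 91.5 for *Insig1*. *Ebp* (78.4), *Insig2* (62.6) and *Hmgcs1* (57.5) followed *Insig1*, and *Mylip* (2.51) was next to the lowest. The order differed on HF/HS, where in controls *Ebp* was at 75.1, *Insig2* at 68.9, *Insig1* at 44.5 and *Hmgcs1* at 26.4 CPM per kb. Of the 27 genes, 9 share exon bases with another annotated gene. *Fdps* shares 1124 bases with *Gm43738* and *Tm7sf2* shares 532 with *Vps51* on the same strand. Whether reads there were counted for either gene or for neither is not given. The other 7 share bases with a gene on the opposite strand, among them *Fdft1* with *Ctsb* (774 bases) and *Lss* with *4930483K19Rik* (381 bases). The libraries were stranded, but the strand setting of the counting is not given in the sources used here.

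Cholesterol synthesis mRNA was lower on HF/HS than on chow. With both genotypes fitted together and genotype as a term, 21 of the 27 genes fell and 1, *Mylip*, rose (edgeR's quasi-likelihood test, Benjamini-Hochberg adjusted p under 0.05). Over all 13749 genes tested, 11.9% fell and 11.7% rose. The median log2 difference was -0.78 over the 27 genes and 3e-04 over all genes tested. Of the mevalonate and isoprenoid enzymes 7 of 8 fell (median log2 difference -1.03), of the enzymes from squalene to cholesterol 10 of 11 fell (median -0.90), and of SREBP2 and its regulators 2 of 4 fell. The heat map of all 27 genes shows the mice behind these numbers one by one.

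**Figure D1:**
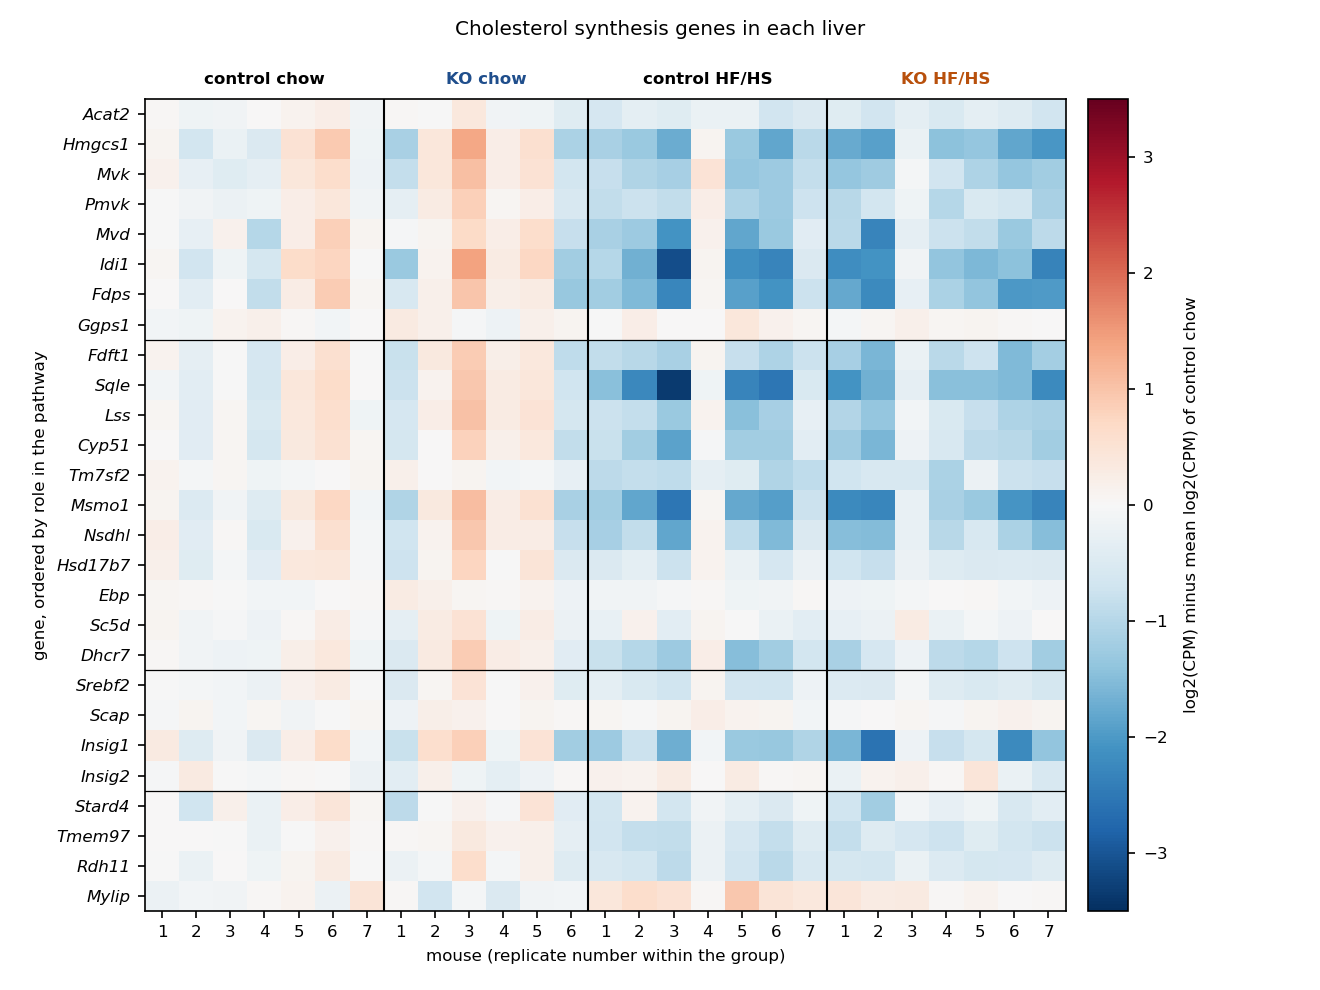
Each cell is 1 gene in 1 mouse, coloured by log2 CPM minus the mean log2 CPM of the control chow group, with genes in pathway order and lines between the roles. Mice on HF/HS are lower across both enzyme arms, less so in KO HF/HS replicate 3 and apart from control HF/HS replicate 4, and *Ebp*, *Ggps1* and *Scap* are pale throughout.

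In the mevalonate arm, *Hmgcs1* (chromosome 13, 119690379 to 119708260, plus strand, GRCm38) encodes the cytosolic HMG-CoA synthase. On chow it was between 158.2 and 465.2 CPM (median 223.9) in controls, and in the HGFAC-KO group between 111.8 and 636.4 CPM (median 305.7). On HF/HS it was between 70.2 and 264.6 CPM (median 101.2) in controls and between 60.1 and 212.1 CPM (median 72.4) in HGFAC-KO mice. In each genotype 6 of 7 mice on HF/HS were below all mice on chow, and 1 mouse overlapped. Over both genotypes *Hmgcs1* fell to 38.0% of its chow level (log2 -1.39 ± 0.28 SE, edgeR adjusted p = 6.334e-04).

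*Idi1*, which interconverts the isoprenoid units, varied most between mice. In controls it lay between 15.6 and 41.3 CPM (median 24.5) on chow and between 2.86 and 26.5 CPM (median 7.65) on HF/HS. In HGFAC-KO mice it lay between 10.1 and 65.0 CPM (median 28.6) on chow and between 4.93 and 22.6 CPM (median 8.37) on HF/HS. The diets overlapped in both genotypes, and over both *Idi1* fell to 36.0% (log2 -1.47 ± 0.33, edgeR adjusted p = 0.002103). *Fdps*, the farnesyl diphosphate synthase, fell to 38.4% (log2 -1.38 ± 0.27, edgeR adjusted p = 6.084e-04). Its medians were 129.6 CPM on chow and 43.6 CPM on HF/HS in controls, and 146.0 CPM and 37.0 CPM in HGFAC-KO mice.

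The remaining enzymes of this arm fell less. *Mvd*, which decarboxylates mevalonate diphosphate, fell to 47.0% (log2 -1.09 ± 0.23, edgeR adjusted p = 0.001198), with medians of 43.7 CPM on chow and 16.8 CPM on HF/HS in controls and of 46.1 and 21.7 CPM in HGFAC-KO mice. *Mvk*, the mevalonate kinase, fell to 51.1% (edgeR adjusted p = 0.001952), with medians of 15.5 and 8.49 CPM in controls and of 21.7 and 7.52 CPM in HGFAC-KO mice. *Pmvk*, the phosphomevalonate kinase, fell to 58.3% (edgeR adjusted p = 3.500e-04), with medians of 19.3 and 11.6 CPM in controls and of 23.5 and 13.4 CPM in HGFAC-KO mice. All 3 had the order of the diets alike in both genotypes.

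*Acat2*, the cytosolic thiolase that joins the first acetyl-CoA units, fell the least of the 7, to 73.5% (log2 -0.44 ± 0.07, edgeR adjusted p = 1.355e-05), but varied little between mice. In controls it was between 20.1 and 26.1 CPM (median 22.6) on chow and between 13.98 and 19.1 CPM (median 16.6) on HF/HS, and the diets did not overlap. In HGFAC-KO mice the medians were 21.3 and 16.2 CPM, with 5 of 7 mice on HF/HS below all on chow. *Ggps1* makes geranylgeranyl diphosphate, a branch away from sterols, and was the 1 gene of the arm not past the threshold (log2 0.05, 95% interval -0.07 to 0.16, edgeR adjusted p = 0.602). Its 4 group medians lay between 5.99 and 6.53 CPM.

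In the sterol arm, *Sqle* (chromosome 15, 59315077 to 59331192, plus strand), the squalene epoxidase, had the largest diet difference of the 27 over both genotypes. Within HGFAC-KO mice *Idi1* (log2 -1.70), *Hmgcs1* (log2 -1.68) and *Msmo1* (log2 -1.67) differed more than *Sqle* (log2 -1.58). Control mice had between 60.6 and 145.3 CPM (median 91.2) on chow and between 9.10 and 83.9 CPM (median 19.4) on HF/HS. HGFAC-KO mice had between 55.1 and 178.4 CPM (median 106.4) on chow and between 19.7 and 74.7 CPM (median 31.8) on HF/HS. Of the mice on HF/HS, 5 of 7 controls and 6 of 7 with the deletion lay below all chow mice of their genotype. Over both genotypes *Sqle* fell to 34.8% (log2 -1.52 ± 0.29, edgeR adjusted p = 4.056e-04).

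*Msmo1* (chromosome 8, 64718139 to 64733792, minus strand), the C4-methylsterol oxidase, was close behind. In controls it was between 84.8 and 197.6 CPM (median 112.0) on chow and between 20.4 and 124.5 CPM (median 34.0) on HF/HS. In HGFAC-KO mice it was between 54.0 and 249.6 CPM (median 145.7) on chow and between 23.9 and 100 CPM (median 28.3) on HF/HS. The diets overlapped in both genotypes, and over both it fell to 36.5% (log2 -1.45 ± 0.29, edgeR adjusted p = 7.385e-04). *Nsdhl*, which acts with *Msmo1* in removing the C4 methyl groups, fell to 50.3% (edgeR adjusted p = 9.044e-04), with medians of 21.4 and 11.1 CPM in controls and of 23.7 and 9.63 CPM in HGFAC-KO mice. *Hsd17b7*, the ketoreductase of the same step, fell to 71.2% (edgeR adjusted p = 0.007882), with medians of 56.5 and 46.2 CPM in controls and of 59.8 and 40.9 CPM in HGFAC-KO mice.

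The other enzymes that fell form the squalene and lanosterol steps and the last reductions. *Fdft1*, the squalene synthase, fell to 51.8% (edgeR adjusted p = 5.950e-04), with medians of 93.1 and 51.6 CPM in controls and of 112.9 and 41.6 CPM in HGFAC-KO mice. *Lss*, the lanosterol synthase, fell to 53.6% (edgeR adjusted p = 0.00123), and *Cyp51*, the lanosterol demethylase, to 52.2% (edgeR adjusted p = 9.894e-04). In controls *Lss* had medians of 55.1 and 29.9 CPM and *Cyp51* of 125.0 and 51.9 CPM, and in HGFAC-KO mice the medians were 62.9 and 25.8 CPM for *Lss* and 127.4 and 61.3 CPM for *Cyp51*. *Dhcr7*, which reduces 7-dehydrocholesterol to cholesterol, fell to 54.2% (edgeR adjusted p = 3.339e-04), with medians of 60.01 and 32.8 CPM in controls and of 76.3 and 35.0 CPM in HGFAC-KO mice.

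*Tm7sf2*, a sterol C14 reductase, fell to 62.4% (log2 -0.68 ± 0.08, edgeR adjusted p = 4.380e-07). In controls it was between 99.6 and 120.1 CPM (median 111.7) on chow and between 53.8 and 89.7 CPM (median 60.3) on HF/HS, with no overlap. In HGFAC-KO mice the medians were 108.6 and 67.9 CPM, with 6 of 7 mice on HF/HS below all on chow. The late enzymes *Ebp*, the sterol isomerase, and *Sc5d*, the lathosterol oxidase, differed little. *Ebp* fell to 92.0% (edgeR adjusted p = 0.03456), with medians of 184.0 and 167.5 CPM in controls and of 194.0 and 170.2 CPM in HGFAC-KO mice. *Sc5d* did not pass the threshold (log2 -0.16, 95% interval -0.33 to 0.01, edgeR adjusted p = 0.1634), with medians of 205.9 and 178.9 CPM in controls and of 221.9 and 185.9 CPM in HGFAC-KO mice. The plot of 8 genes by group shows the overlap of the ranges.

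**Figure D2:**
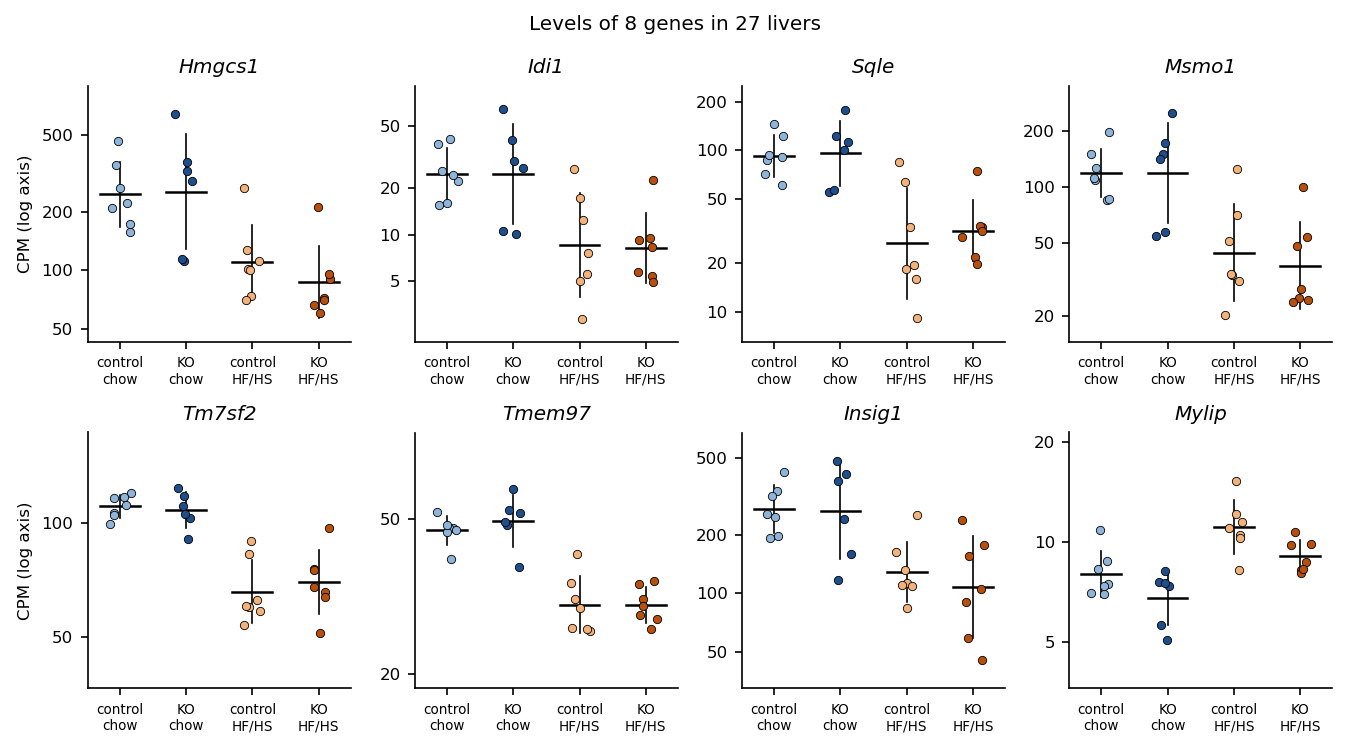
Each point is 1 mouse, with CPM on a log axis and the mean and SD on the log2 scale drawn for each of the 4 groups, for 8 of the 27 genes. Values are lower on HF/HS for the enzymes, with 1 mouse of each HF/HS group within the range of the controls on chow for *Hmgcs1*, and *Mylip* is higher on HF/HS.

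*Srebf2*, which encodes SREBP2 itself, fell to 74.4% (log2 -0.43 ± 0.09, edgeR adjusted p = 0.001591). In controls it was between 70.6 and 99.8 CPM (median 80.5) on chow and between 50.2 and 88.0 CPM (median 56.1) on HF/HS. In HGFAC-KO mice it was between 57.8 and 113.6 CPM (median 83.6) on chow and between 53.0 and 78.1 CPM (median 58.8) on HF/HS. The diets overlapped in both genotypes. *Insig1*, itself an SREBP target, fell to 45.0% (log2 -1.15 ± 0.25, edgeR adjusted p = 0.001398), with medians of 256.1 and 113.0 CPM in controls and of 311.7 and 105.4 CPM in HGFAC-KO mice. *Insig2*, the other INSIG, did not pass (log2 0.12, 95% interval -0.04 to 0.28, edgeR adjusted p = 0.2584), with 4 group medians between 192.3 and 234.7 CPM. *Scap* did not pass either (log2 0.03, 95% interval -0.05 to 0.12, edgeR adjusted p = 0.5776), with 4 group medians between 147.3 and 158.9 CPM. The 95% interval of *Insig1*, -1.66 to -0.64, lay apart from those of *Insig2* and *Scap*.

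Among the other genes, *Tmem97*, a sterol-regulated membrane protein, had the smallest p of the 27. In controls it was between 39.4 and 52.1 CPM (median 47.4) on chow and between 25.7 and 40.5 CPM (median 29.6) on HF/HS. In HGFAC-KO mice it was between 37.7 and 59.4 CPM (median 50.4) on chow and between 26.0 and 34.6 CPM (median 29.9) on HF/HS. The diets did not overlap in HGFAC-KO mice, and in controls 6 of 7 mice on HF/HS were below all on chow. *Tmem97* fell to 62.8% (log2 -0.67 ± 0.07, edgeR adjusted p = 3.018e-08). *Rdh11*, a retinol dehydrogenase known as an SREBP target, fell to 66.4% (edgeR adjusted p = 1.225e-05), with medians of 17.4 and 11.1 CPM in controls and of 16.6 and 11.7 CPM in HGFAC-KO mice. *Stard4*, a cytosolic sterol transfer protein, was at 77.8% (log2 -0.36, 95% interval -0.64 to -0.09) and missed the threshold (edgeR adjusted p = 0.05101), with medians of 61.5 and 46.8 CPM in controls and of 57.7 and 45.2 CPM in HGFAC-KO mice.

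*Mylip* (chromosome 13, 45389742 to 45412022, plus strand), an LXR-induced ubiquitin ligase that marks lipoprotein receptors for degradation, was the 1 gene that rose. In controls it was between 6.96 and 10.9 CPM (median 7.48) on chow and between 8.24 and 15.3 CPM (median 11.01) on HF/HS. In HGFAC-KO mice it was between 5.06 and 8.20 CPM (median 7.46) on chow and between 8.07 and 10.7 CPM (median 8.73) on HF/HS. On HF/HS 4 of 7 controls and 6 of 7 HGFAC-KO mice were above all chow mice of their genotype. The rise was to 135.4% of the chow level (log2 0.44 ± 0.09, edgeR adjusted p = 5.042e-04).

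Within controls 14 genes fell and 1 rose on HF/HS, against 5.6% and 4.93% of the 13525 genes tested. Within HGFAC-KO mice 15 fell and 0 rose with edgeR, against 2.73% and 3.17% of 13613. In HGFAC-KO mice *Mylip* had an unadjusted p under 0.05 (log2 0.40, edgeR adjusted p = 0.0562), and DESeq2 called 1 gene higher and limma voom 0. The median log2 difference was -0.735 in controls and -0.86 in HGFAC-KO mice, against 0.0036 and 0.0037 over all genes tested. In each genotype 22 of the 27 genes had an unadjusted p under 0.05, against 3433 of 13525 genes in controls and 3043 of 13613 in HGFAC-KO mice, and several adjusted p-values lay near the threshold. In controls *Sqle* had an adjusted p of 0.04992 and *Nsdhl* of 0.05019, and in HGFAC-KO mice *Idi1* had 0.05486 and *Cyp51* 0.05639 (edgeR).

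The numbers within a genotype moved with single mice. In controls, 5 genes passed without control chow replicate 6 and 21 without control HF/HS replicate 4, and between 6 and 9 passed without any 1 of control HF/HS replicates 1, 2, 3, 5 and 6 or control chow replicates 1, 2, 5 and 7. In HGFAC-KO mice, 5 passed without KO HF/HS replicate 1 or 6 or KO chow replicate 2 or 5, and 6 to 7 without KO HF/HS replicate 2 or 7 or KO chow replicate 3 or 4. There, 20 passed without KO chow replicate 1. The median log2 difference moved less, between -0.93 and -0.64 in controls and between -0.97 and -0.68 in HGFAC-KO mice.

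The diet differences of the genotypes were set side by side. *Hmgcs1* fell to 45.8% in controls (log2 -1.13 ± 0.32, edgeR adjusted p = 0.03924) and to 31.3% in HGFAC-KO mice (log2 -1.68 ± 0.42, edgeR adjusted p = 0.03708). *Sqle* fell to 36.2% in controls and to 33.5% in HGFAC-KO mice (edgeR adjusted p = 0.01808). *Insig1* fell to 48.5% in controls (edgeR adjusted p = 0.01412) and was at 41.6% in HGFAC-KO mice, which did not pass (edgeR adjusted p = 0.09905). The difference itself was tested as the interaction of genotype and diet. None of the 27 genes passed with edgeR, DESeq2 or limma voom, 0 had an unadjusted p under 0.05 with any of them (506 of all genes with edgeR), and the background was 0% of 13932 genes. The estimate was below 0 for 25 of the 27 genes, against 6791 of 13932 genes tested. These genes co-vary between mice, so the signs are not independent. The median over the 27 was -0.13, and lay between -0.27 and -0.02 when any 1 mouse was left out. The estimate was largest for *Hmgcs1*, at -0.56 with a 95% interval from -1.68 to 0.56. The smallest p were those of *Ggps1* (log2 -0.16), *Ebp* (log2 -0.11) and *Scap* (log2 -0.09), each with an edgeR adjusted p of 0.9836.

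None of the 27 genes passed the threshold for genotype. On chow 0 did with edgeR, against 0.00737% of 13571 genes, 0 had an unadjusted p under 0.05, against 812 of all genes, and DESeq2 and limma voom called 0. The estimates were above 0 for 21 of 27 genes, against 6947 of 13571 genes tested. The median log2 difference over the 27 was 0.09, and lay between -0.10 and 0.18 when any 1 mouse was left out. On HF/HS 0 passed with edgeR, against 0.0148% of 13544 genes, 1 had an unadjusted p under 0.05, against 1306 of all genes, and DESeq2 and limma voom called 0. There 23 of 27 estimates were below 0, against 6842 of 13544 genes tested. The median over the 27 was -0.06, and lay between -0.20 and 0.08 when any 1 mouse was left out. On both diets these genes moved together in single mice, as given below, so the signs are not independent. The higher sum of hepatocyte markers in HGFAC-KO mice, mostly *Alb*, and the higher *Sox9* are given above, and their part in these values was not tested. For *Hmgcs1* the 95% interval of the log2 difference was -0.65 to 1.08 on chow and -1.08 to 0.39 on HF/HS. For *Acat2*, which varied little, it was -0.25 to 0.19 on chow and -0.23 to 0.11 on HF/HS.

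*Mylip* had the smallest p of the 27 genes in each genotype comparison. It differed by -0.23 on the log2 scale on chow (95% interval -0.50 to 0.05, edgeR adjusted p = 0.8104) and by -0.31 on HF/HS (95% interval -0.55 to -0.07, edgeR adjusted p = 0.4477). On HF/HS 4 of 7 controls were above all HGFAC-KO mice, and a two-sided exact permutation test gave an unadjusted p of 0.02448, where 0.0005828 is the smallest it can give. Over both diets, with diet as a term, *Mylip* was at 82.8% of the control level (log2 -0.27 ± 0.09, edgeR adjusted p = 0.166). In that comparison 0 of the 27 genes passed with edgeR, DESeq2 or limma voom, 1 had an unadjusted p under 0.05, against 1794 of all genes, and the background was 0.16% of 13749 genes. Next in order of p were *Ebp* (log2 0.10) and *Insig2* (log2 -0.12) on chow, and *Hsd17b7* (log2 -0.18) and *Insig2* (log2 -0.15) on HF/HS. The plot of log2 differences sets the genotype intervals beside those of the diet.

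**Figure D3:**
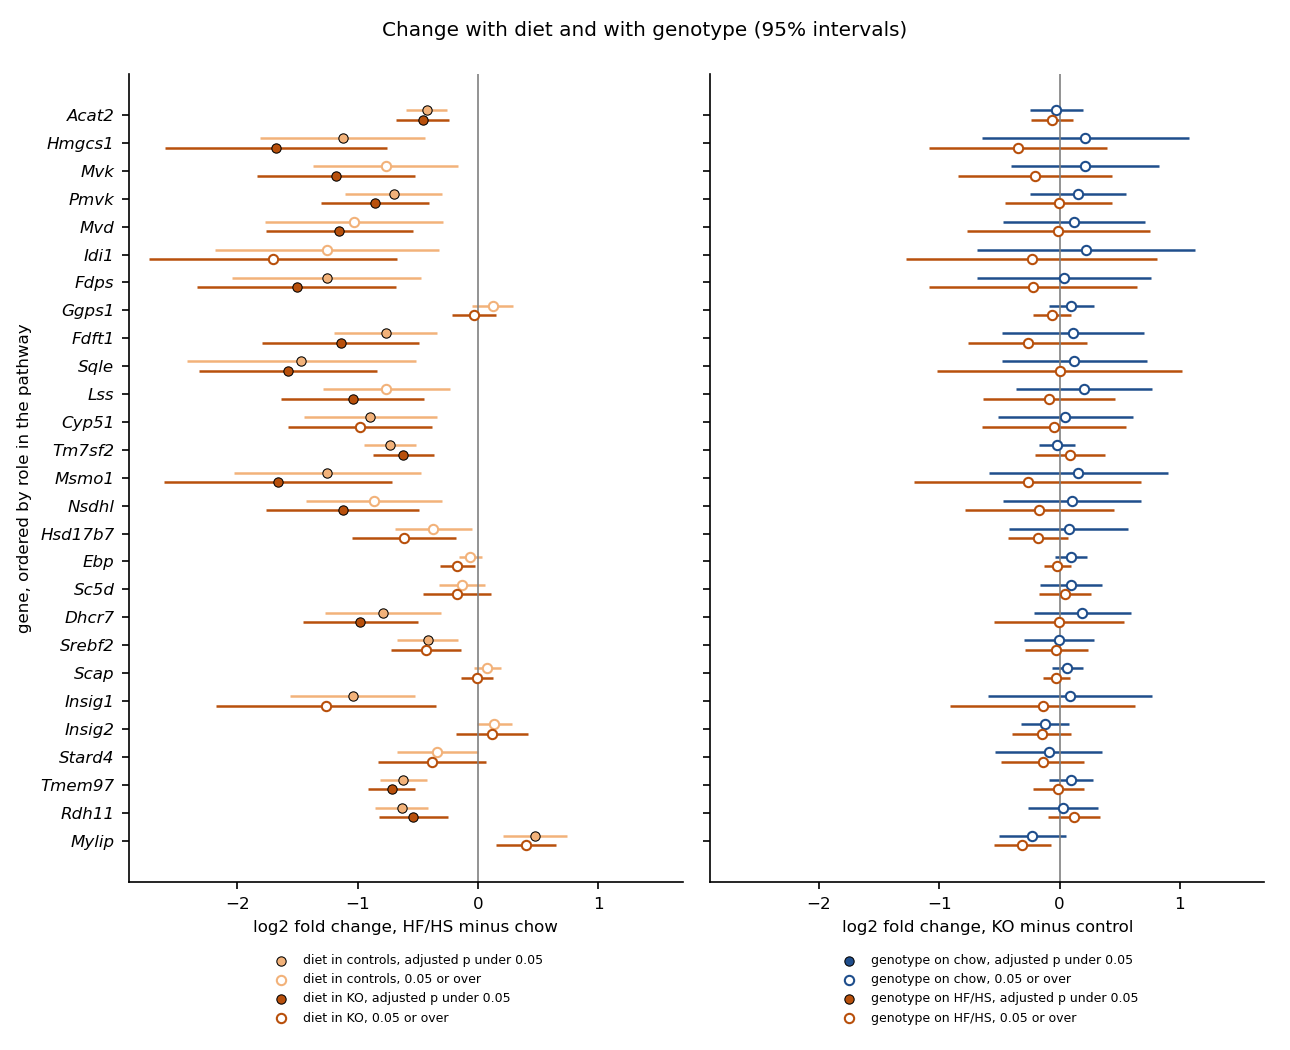
Points are edgeR log2 fold changes with 95% intervals as lines, HF/HS over chow within each genotype and HGFAC-KO over control on each diet, and filled points have an adjusted p under 0.05. In each genotype 15 diet points are filled, and no genotype point is.

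The genes moved together in single mice. For each mouse the median over the 27 genes of the log2 deviation from the control chow mean was taken. It lay between -0.27 and 0.40 in controls and between -0.50 and 0.76 in HGFAC-KO mice on chow, and between -1.07 and 0.07 in controls and between -0.93 and -0.18 in HGFAC-KO mice on HF/HS. On HF/HS, 1 mouse of each genotype had a median within the range of the controls on chow. Control HF/HS replicate 4 was at 0.07, with 19 of 27 genes above the control chow mean, while the other mice of its group lay between -1.07 and -0.50. KO HF/HS replicate 3 was at -0.18, and the next of its group at -0.57. It had 5 of 27 genes above the control chow mean, as did KO HF/HS replicate 5, so it was high for its group but below that mean in most genes. On chow, KO chow replicate 3 was the highest (0.76) and KO chow replicates 1 and 6 were the lowest (both -0.50). KO chow replicate 1 also had the highest share of counts on ribosomal protein genes of all mice (1.18%, next 0.931%), and KO chow replicate 6 the highest share on rows that name no gene (12.1%, next 9.17%). The number of genes called for diet in HGFAC-KO mice was 20 without replicate 1 and 18 without replicate 6, against 15 with both, and the part of these shares in the values was not tested.

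Whether both HF/HS mice stood with their diet in other genes was looked at after their values were seen, with no test. The score of a mouse was its mean deviation over the genes called for diet in the other genotype, each signed by its direction there, without the 27 genes. Control HF/HS replicate 4 scored 0.18 over 787 genes, where controls lay between 0.11 and 0.49 on HF/HS and between -0.46 and -0.16 on chow. KO HF/HS replicate 3 scored 0.18 over 1409 genes, where HGFAC-KO mice lay between 0.10 and 0.31 on HF/HS and between -0.27 and -0.13 on chow. Both thus lay within the range of their diet in those genes.

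The spread between mice of a group was large for these genes. The SD of log2 CPM within groups, pooled over the 4 groups, ran from 0.10 for *Ebp* to 0.89 for *Idi1*, with a median of 0.39 against 0.18 over 13932 genes. It was above the median of all genes for 23 of the 27 and above their 90th percentile for 12. Against the 500 genes nearest in level, 17 were above the 90th percentile. *Sqle* (0.77), *Msmo1* (0.76), *Fdps* (0.71) and *Hmgcs1* (0.71) came next to *Idi1*, and *Scap* (0.10) and *Ggps1* (0.13) varied about as little as *Ebp*. The SD was highest in HGFAC-KO mice on chow for 18 of the 27. The same share over all genes was not counted, this was the smallest group, and these genes co-vary. Within a group, the highest mouse exceeded the lowest up to 9.27-fold, for *Idi1* in controls on HF/HS.

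Deviations from the group means were shared between genes. Over the 351 pairs of the 27 genes the median Pearson r across 27 mice, after centring on group means, was 0.64 (range -0.45 to 0.96), and 58.1% of pairs had r above 0.5. Over all pairs of genes tested the median was -0.0035, and 3.96% had r above 0.5. All values of a mouse come from 1 library, and pairs that share a gene are not independent. Within groups the median r was 0.76 in controls and 0.81 in HGFAC-KO mice on chow, and 0.66 and 0.60 on HF/HS. Pairs between the mevalonate and sterol arms had a median r of 0.79, beside 0.71 and 0.76 within each arm. *Srebf2*, *Hmgcs1* and *Lss* had the highest median r with the other genes (each 0.86), while *Mylip* (-0.29) and *Ggps1* (-0.19) were the lowest.

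**Figure D4:**
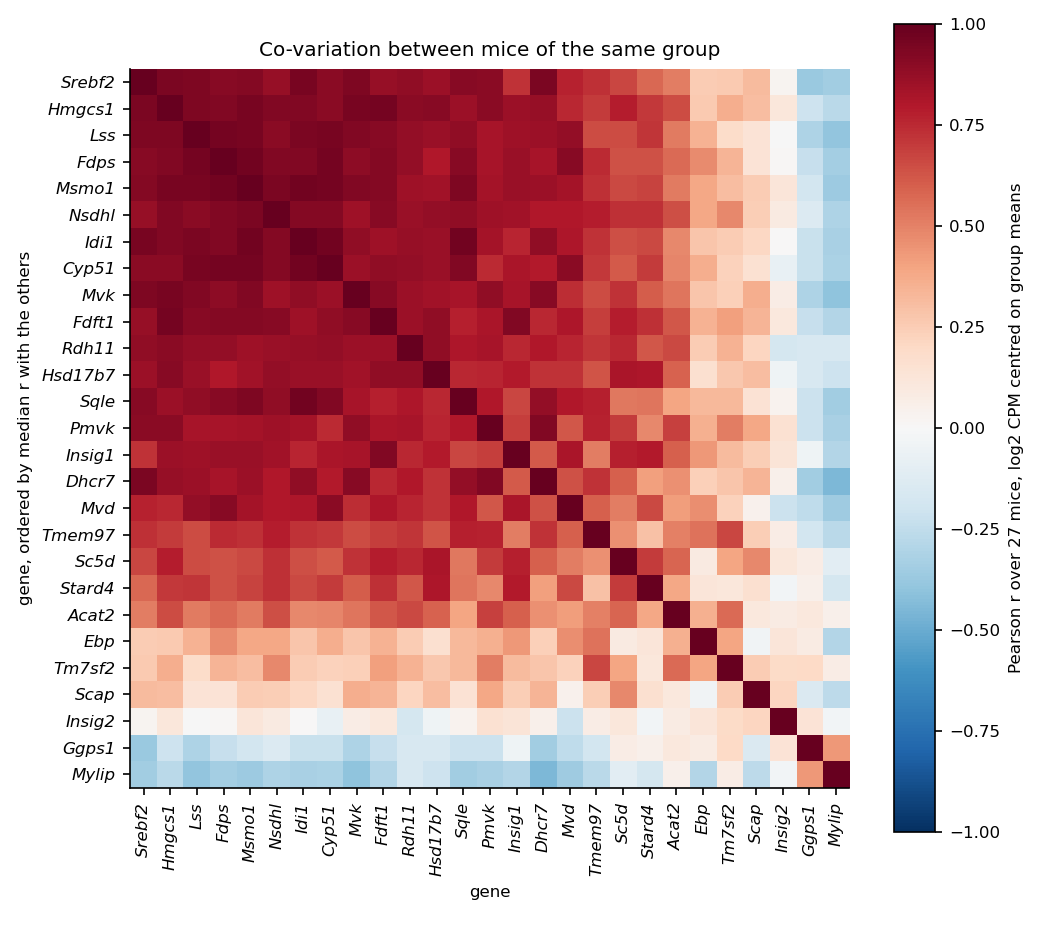
The colour of each cell is Pearson r between the log2 CPM of a pair of the genes over 27 mice, after subtracting group means. High r spans both enzyme arms together with *Srebf2*, *Insig1* and *Rdh11*, apart from *Ggps1*, *Ebp* and *Tm7sf2*, and *Insig2*, *Scap* and *Mylip* stand outside it.

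*Hmgcs1* was taken as the reference for a test of co-variation, with mice permuted within groups 100000 times and p-values adjusted over 13931 other genes. Of the 26 others of the 27, 18 passed by Pearson r and 17 by Spearman's rho, all with positive values, and 0.266% of all genes passed with positive r and 0.187% with positive rho. *Fdft1* (r = 0.96, rho = 0.93), *Mvk* (r = 0.95, rho = 0.90), *Msmo1* (r = 0.95, rho = 0.95) and *Srebf2* (r = 0.94, rho = 0.89) were the highest. Each had permutation p = 1e-05 for both measures, the smallest these permutations can give, and an adjusted p of 0.00633. Of the 20 genes with the highest r among all genes, 14 belong to the 27. Without the 2 mice farthest from the median of *Hmgcs1*, KO chow replicate 3 and KO HF/HS replicate 3, r was 0.94 for *Fdft1* and 0.92 for *Srebf2*, and the median r over the genes was 0.82 in place of 0.86. Within groups, r of *Srebf2* with *Hmgcs1* was 0.93 in controls and 0.997 in HGFAC-KO mice on chow, and 0.94 and 0.92 on HF/HS.

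Other genes were tied to *Hmgcs1* less closely. *Stard4* (r = 0.70, permutation p = 1.8e-04, adjusted p = 0.0597) passed by rho only (rho = 0.79, permutation p = 3e-05, adjusted p = 0.0167). *Sc5d*, which did not pass for diet, passed by r (r = 0.78, permutation p = 5e-05, adjusted p = 0.0249) and not by rho (rho = 0.67, permutation p = 7.3e-04, adjusted p = 0.145). *Tmem97*, with the smallest diet p, also passed by r only (r = 0.70, permutation p = 1.3e-04, adjusted p = 0.0477; rho = 0.68, permutation p = 3.5e-04, adjusted p = 0.104). *Acat2* (r = 0.65, rho = 0.59, permutation p = 0.00115 and 0.00282, adjusted p = 0.219 and 0.3) and *Tm7sf2* (r = 0.36, rho = 0.37, permutation p = 0.0707 and 0.0676, adjusted p = 0.765 and 0.764) did not pass, although both fell on HF/HS. *Scap*, *Ebp*, *Insig2*, *Ggps1* and *Mylip* had r between -0.27 and 0.31, with permutation p adjusted to between 0.85 and 0.949.

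**Figure D5:**
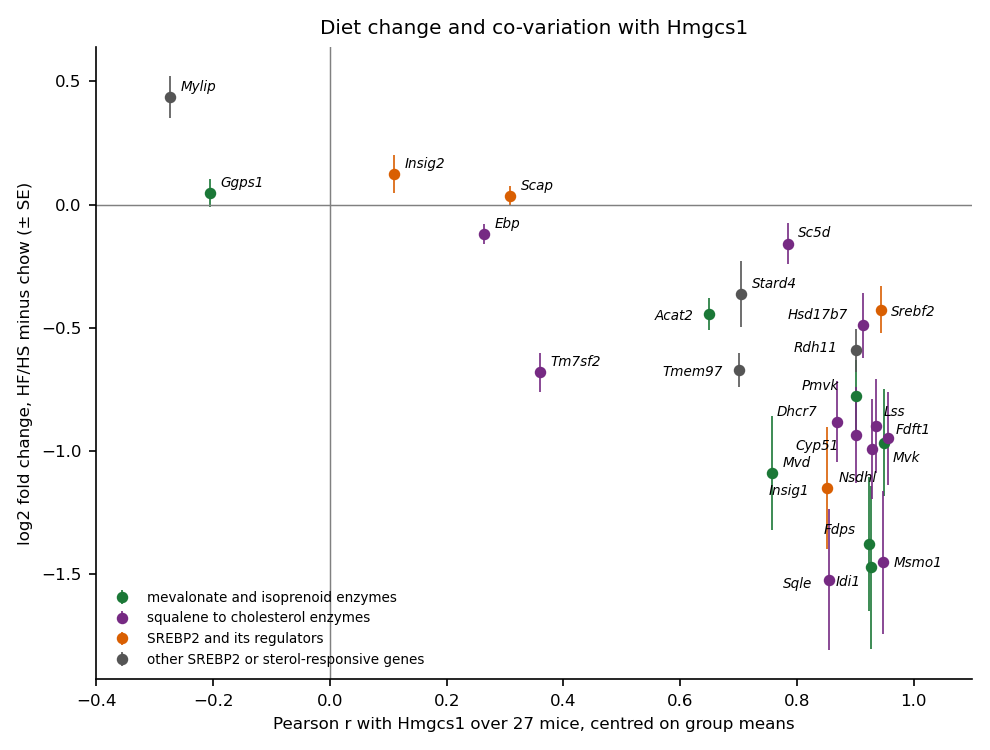
Each point is a gene other than *Hmgcs1*, with Pearson r with *Hmgcs1* over 27 mice (centred on group means) on the x axis and the log2 fold change of HF/HS over chow over both genotypes (± SE) on the y axis, coloured by role. Most enzymes combine a negative fold change with r above 0.7, *Tm7sf2* has a log2 fold change of -0.68 at r = 0.36, and *Mylip* lies at 0.44 on the y axis.

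Among the 20 genes with the highest r with *Hmgcs1* were 3 from outside the sterol lists that are described here. *4930483K19Rik* (r = 0.95, rho = 0.94) is an antisense transcript that shares 381 exon bases with *Lss*, and with the strand setting of the counting not given, reads of *Lss* may be counted in it. *Mmab* (r = 0.92, rho = 0.89), a cobalamin adenosyltransferase, starts 208 bases from *Mvk* on the opposite strand of chromosome 5, beyond the *Mvk* window printed above. *Erg28* (r = 0.87, rho = 0.83) encodes an endoplasmic reticulum protein of sterol synthesis. Each had permutation p = 1e-05 and an adjusted p of 0.00633 for both measures. On HF/HS over both genotypes *Mmab* fell by 0.59 on the log2 scale (edgeR adjusted p = 0.004443) and *Erg28* fell by 0.45 (edgeR adjusted p = 3.402e-04). These 3 were picked for their r, which uses deviations within groups and not the diet difference.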

How the data were processed

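Liver mRNA of 27 mice was sequenced as stranded paired-end reads. The authors used HISAT2 for alignment to GRCm38 and featureCounts 1.6.3 for counting, and deposited the raw counts per gene in 1 table, without normalization. The annotation used for counting and its strand setting are not given in the sources used here. How the counting treated reads of overlapping genes is not given either. Rows without a gene name (4.13% to 12.1% of a library) stayed out of library sizes and tests, and counts of a symbol on several rows were summed. Groups came from the labels, which give no batch. Nothing states that mice came from separate litters or cages, so p-values measure the spread between these mice. The lowest chi-square per gene between libraries of a group was 19.0 over 78 pairs, so none repeated another.

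The main test was that of edgeR 4.0.16 in R 4.3.3 (TMM, filterByExpr with minimum count 10 and minimum total 15, robust quasi-likelihood fit, Benjamini-Hochberg adjustment over all genes tested, threshold 0.05), since the study's methods name the BioJupies server for differential expression and give no settings for it. Comparisons of 2 groups used only their mice, and the others all 27. Levels are CPM after TMM, and log2 CPM for permutation tests, spread and co-variation had a prior count of 2. Intervals are 95% intervals of the fit. Alternatives were DESeq2 1.42.0, limma 3.58.1 voom, other filters and normalizations, a fit of all mice, the replicate number as a block, *Sqle* as the reference for co-variation, and leaving out each mouse. Leaving out both HF/HS mice with medians in the control chow range was added after seeing the data. The fits were tested on simulated counts. Gene positions are from GENCODE vM21.

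The 27 genes and the other lists were chosen with earlier results of these data known. All 27 are named, of other lists at most the 3 genes with the smallest p in a comparison, and of genes outside the lists at most the 5 with the highest r. Results for some genes of the pathway are not reported here.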

Additional observations from a re-analysis of the deposited data

Results flagged for a closer look

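Of 108 sets of values, each 1 gene in 1 group of mice, 12 had a mouse that stood far from the rest by Dixon's criterion, which chance meets in about 1 of 20 sets. In all 12 it was the highest mouse of an HF/HS group, and since these genes co-vary the 12 are not independent. In control HF/HS replicate 4, *Hmgcs1* was at 264.6 CPM (next mouse 127.3), *Mvk* at 24.4 (next 9.93), *Pmvk* at 24.7 (next 12.8), *Fdft1* at 100.2 (next 55.9) and *Dhcr7* at 77.4 (next 41.6). In KO HF/HS replicate 3, *Hmgcs1* was at 212.1 CPM (next 96.1), *Idi1* at 22.6 (next 9.57), *Fdps* at 105.0 (next 59.9), *Sqle* at 74.7 (next 33.7), *Msmo1* at 100 (next 53.6), *Srebf2* at 78.1 (next 60.2) and *Rdh11* at 15.0 (next 12.7). *Sqle* (83.9 CPM) and *Idi1* (26.5 CPM) were also highest in control HF/HS replicate 4, but control HF/HS replicate 7 was next at 63.5 and 17.3 CPM.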

How the results depend on the processing

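For diet over both genotypes, 22 genes passed, and between 21 and 23 did when any 1 mouse was left out and under the other settings. It was 24 without both HF/HS mice with medians in the control chow range, which were chosen for their high values, so that a larger number follows from the choice. Within a genotype the numbers were less stable. The 15 in controls became 9 with no filter on low counts and 5 with the replicate number as a block, and ran from 5 to 21 when 1 mouse was left out. The 15 in HGFAC-KO mice became 7 with no filter, were 17 with the replicate block, and ran from 5 to 20 when 1 mouse was left out. DESeq2 called 19 and 21 (of all genes 1939 and 1401), and limma voom 20 and 16 (of all genes 1441 and 797). The fit of all 27 mice called 12 in controls and 20 in HGFAC-KO mice (of all genes 1418 and 1163). The cause of these differences was not tested. The numbers showed no clear pairing of mice across groups: of 39 same-number pairs 10 had r of deviations above 0.1 (range -0.25 to 0.37), and at most 2 mice of a group were closest to their own number. The share above 0.1 among pairs of different numbers is not given here, so the check cannot decide whether mice were paired. With the block, 783 of all genes passed in controls and 599 in HGFAC-KO mice, against 757 lower and 667 higher, and 371 lower and 431 higher, without it. The genotype comparisons and the interaction stayed at 0 of 27 in each setting and with each mouse left out, but on chow DESeq2 gave an adjusted p for only 13 of the 27. The median r with *Hmgcs1* (0.862) was 0.789 with *Sqle* as the reference, and between 0.841 and 0.892 when 1 mouse was left out. The median r among the genes (0.638) was 0.588 as Spearman's rho, and between 0.589 and 0.664 when 1 mouse was left out. Single genes were followed where the text gives their value: all 27 for diet over both genotypes, those past or near the threshold for diet within a genotype, and 3 to 5 for genotype and interaction. Under other settings 30 of these 558 values lost the threshold, 20 gained it and 0 changed direction. With 1 mouse left out, 182 of 1524 lost it, 17 gained it and 3 changed direction, all for genotype on chow and none past the threshold. *Hmgcs1* there ran from -0.13 (without KO chow replicate 3) to 0.41, and *Acat2* from -0.12 to 0.040 (without KO chow replicate 6). How depth limits these comparisons was not tested.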

Other observations

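Other lists of sterol metabolism were counted for diet over both genotypes, where 11.9% of all genes fell and 11.7% rose, with no test of a list against all genes. Of 18 genes of cholesterol transport, esterification and efflux, 1 fell and 5 rose. *Abcg1*, a sterol exporter, rose by 0.41 on the log2 scale (edgeR adjusted p = 8.457e-04), *Soat1*, which esterifies cholesterol, by 0.59 (edgeR adjusted p = 0.00129), and *Npc1*, which moves cholesterol out of lysosomes, by 0.26 (edgeR adjusted p = 0.003788). Of 6 Kupffer cell markers, 1 had a lower estimate (log2 -0.66) and 5 had higher ones. The 2 called by edgeR rose, *Clec4f* by 0.54 and *Cd5l* by 0.47, and the part of these markers in these values was not tested. Of 10 LXR and oxysterol targets, 1 fell and 4 rose, with *Mylip* and *Abcg1* among the latter. Of 12 other genes of sterol sensing and SREBP processing, 2 fell and 2 rose, with *Pgrmc1* at -0.45 (edgeR adjusted p = 2.414e-10) and *Paqr3* at 0.39 (edgeR adjusted p = 1.870e-06). Of 11 genes of the isoprenoid branches after farnesyl diphosphate 0 passed with edgeR, and 2 had an unadjusted p under 0.05, against 4986 of 13749 genes. Of 4 ketone body enzymes 2 rose, *Acat1* by 0.21 and *Bdh1* by 0.26. No gene of these lists passed the test of co-variation with *Hmgcs1*, and the median r of a list lay between -0.05 and 0.08.

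Fatty acid synthesis, driven mainly by SREBP1 and ChREBP, was the list nearest to the 27 genes in co-variation, with a median r with *Hmgcs1* of 0.41. Of its 17 genes 3 passed by r and none of these by rho. *Aacs*, the cytosolic acetoacetyl-CoA synthetase, had r = 0.79 and rho = 0.69 (permutation p = 5e-05 and 4.1e-04, adjusted p = 0.0249 and 0.114). *Mid1ip1* had r = 0.75 and rho = 0.62 (permutation p = 1.2e-04 and 0.00274, adjusted p = 0.0452 and 0.296), and *Thrsp* had r = 0.69 and rho = 0.65 (permutation p = 1.2e-04 and 8e-04, adjusted p = 0.0452 and 0.149). For diet, 2 of the 17 fell and 4 rose, with *Elovl5* at 0.33 (edgeR adjusted p = 0.002022), *Acaca*, the acetyl-CoA carboxylase, at 0.40 (edgeR adjusted p = 0.003531) and *Acss2* at -0.25 (edgeR adjusted p = 0.006276). No marker of the liver cell types passed for co-variation with *Hmgcs1*, and the median r of a marker list lay between -0.29 for other leukocytes and 0.28 for cholangiocytes. Of the markers, 1 of 6 of hepatocytes fell, 2 of 6 of other leukocytes and 3 of 6 of sinusoidal endothelial cells rose, 1 of 6 of stellate cells fell and 1 rose, and 0 of 5 of cholangiocytes passed with edgeR, with 0 at an unadjusted p under 0.05.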
